A study of Mus musculus with 24 samples.

Results

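The transcriptional response of *Olfml3* knockout bone marrow-derived macrophages (BMDMs) to lipopolysaccharide (LPS) was read from 6 RNA-seq libraries, of 24 in the whole series. The 6 were chosen by their titles and library names: 3 libraries of knockout BMDMs given PBS and 3 of knockout BMDMs given LPS at 100 ng/mL for 4 h. The cells came from male C57BL/6 mice, 8 weeks old, with a global *Olfml3*-/- knockout made by CRISPR-Cas9, so that every cell type of the animal lacks the gene and not only the macrophage. Marrow of the tibia and fibula was grown for 6 days in IMDM with 10% FBS and 20% supernatant of L929 cells, a source of macrophage colony-stimulating factor. The 6 wild-type libraries of the same table, 3 with PBS and 3 with LPS, had the same culture and served for the comparison of responses. The genotype tag contradicts the title in 12 of the 24 libraries, among them 3 of the 6 knockout BMDM libraries, and the titles were followed throughout. The labels do not say whether the 3 libraries of a group came from separate mice, and p-values therefore measure only the spread between these libraries, which may be technical.

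LPS is the outer membrane glycolipid of Gram-negative bacteria. On macrophages CD14 passes it to the TLR4-MD-2 receptor, which signals at the cell surface through TIRAP and MyD88 to NF-kB and the MAP kinases, and from endosomes through TRAM and TRIF to IRF3 and interferon beta. Interferon beta then acts back on the same cells through its receptor, JAK kinases and STAT factors, which turn on the interferon-stimulated genes. Stimulated macrophages also shift their metabolism: glycolysis rises, NOS2 makes nitric oxide from arginine, and ACOD1, also called IRG1, makes itaconate from the citrate cycle intermediate cis-aconitate.

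Poly(A) RNA was read in pairs of 150 bases. Library totals ran from 17746364 to 22873094 counts with PBS and from 17121240 to 22815104 with LPS in the knockout. Within a group, pairs of libraries differed by a chi-square per degree of freedom of 1.80 to 2.03 in the knockout and 2.35 to 11.4 in the wild type, where 1 is counting noise alone. Levels are given as scaled FPKM, fragments per kilobase of exonic length relative to library totals that were scaled by the median ratio, and they may be compared between genes. The scaling is not small here: the factors applied to the totals were 1.32 to 1.33 with PBS and 0.810 to 0.816 with LPS, and the libraries with LPS also had a lower share of mitochondrial counts (2.17% to 2.23%, against 2.72% to 2.74%). Without it, the middle of the log2 fold changes over all genes moved by -0.70. Among the members of the lists below, 36 of 267 called rises, all between 0.66 and 1.26 on the log2 scale, lost their call only in the 2 alternatives without median-ratio scaling, and 12 of the 267 changed sign there.

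*Olfml3*, the gene knocked out, had 0.0230, 0.00535 and 0.00694 scaled FPKM in the 3 knockout libraries with PBS and 0.00925, 0 and 0 with LPS, which is 7 counts over the 6 libraries. The wild-type libraries had 0.476, 0.411 and 0.509 with PBS and 0.327, 0.345 and 0.351 with LPS. All 6 libraries titled knockout lay below all 6 titled wild type. The response of *Olfml3* itself to LPS in the knockout was not called (edgeR adjusted p = 0.210). The 7 macrophage markers were all expressed, with a summed level of 12409 to 13396 scaled FPKM with PBS and 15324 to 15588 with LPS. The T cell markers *Cd3d*, *Cd3e*, *Cd3g* and *Cd8a* were at 0 in all 6 libraries, as was *Ly6g* of neutrophils. Summed markers stayed under 10 scaled FPKM for T cells (4.90 to 5.13 with PBS, 8.76 to 9.11 with LPS), neutrophils (4.17 to 4.88, and 6.14 to 7.37) and endothelial cells (0.597 to 0.714, and 4.72 to 5.23). Members of those lists that were called higher were *Lck*, *S100a9*, *Kdr*, *Cdh5* and *Pecam1*. The marker sums of B cells, NK cells, dendritic cells, stromal cells, mast cells and basophils, and erythroid cells did not exceed 1.67 scaled FPKM in any of the 6 libraries. In bulk RNA, a change in the share of a cell type and a change in RNA per cell cannot be told apart.

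Of 14057 genes with enough counts to test, 7511 were called between LPS and PBS in the knockout, which is 53.4%. A gene was called at an edgeR adjusted p under 0.05 (Benjamini-Hochberg over the 14057 genes) and a fold change of at least 1.5. The calls split into 3487 genes higher with LPS (24.8% of those tested) and 4024 lower (28.6%), with a median of -0.03 on the log2 scale over all those tested. At least 2-fold changes numbered 2426 upward and 2804 downward, and at least 10-fold changes 700 upward and 327 downward. The 3 libraries with LPS did not overlap the 3 with PBS for 7392 of the 7511 called genes, and for 80.8% of all genes tested. The split depends on the scaling: 46.4% of the calls were rises as given here, 44.7% with TMM, 46.8% with DESeq2, 19.9% with library totals alone and 20.6% with limma on the deposited FPKM. A list below is therefore described by its counts beside 24.8% and 28.6%, and no set test was made.

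**Figure D1:**
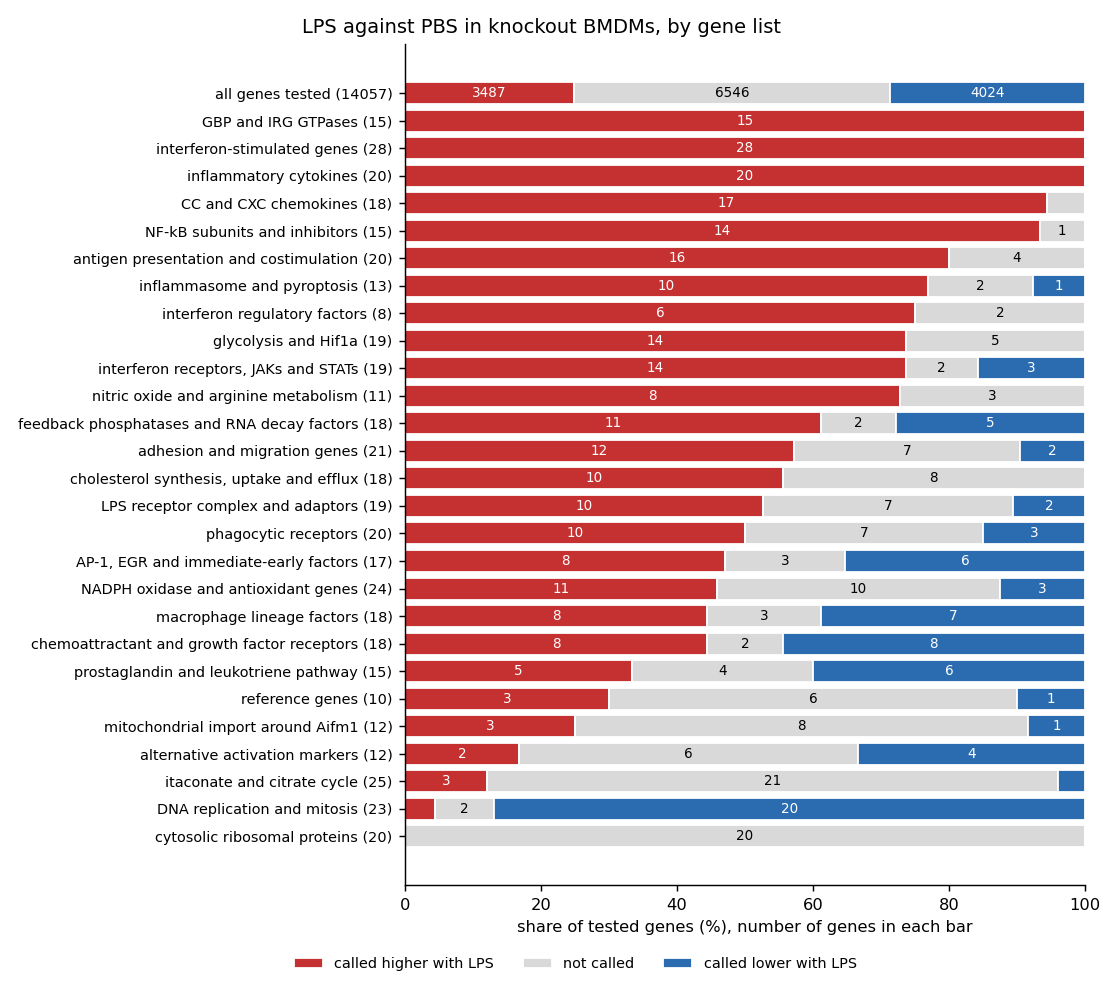
Each bar is 1 of the 27 gene lists or, at the top, all 14057 genes tested; its length is 100% of the genes tested (number in brackets), split into those called higher with LPS (red), not called (grey) and called lower (blue) in knockout BMDMs, with numbers of genes in all but the narrowest segments. All 28 interferon-stimulated genes, all 20 cytokines and all 15 GBP and IRG GTPases were called higher, and 20 of 23 replication and mitosis genes were called lower. None of 20 ribosomal protein genes was called, all with folds under 1.5.

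Genes central to the study, as readouts of inflammation or for their products, came first. *Nos2*, the inducible nitric oxide synthase, had 0.0159, 0.0371 and 0.0867 scaled FPKM with PBS and 269.6, 266 and 263 with LPS (log2 fold change 12.52, SE 0.09, edgeR adjusted p = 1.47e-37). *Acod1*, which encodes IRG1, went from 1.05, 1.26 and 1.53 to 2412, 2393 and 2378 (log2 fold change 10.88, SE 0.06, edgeR adjusted p = 3.43e-40). Its rise in level was among the 5 largest of called genes with a symbol. For both, the libraries of each group lay close together and orders of magnitude from the other group.

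The cytokines followed the same form. *Il6* had 0, 0.0543 and 0.0176 scaled FPKM with PBS and 162, 155 and 152 with LPS (log2 fold change 12.48, SE 0.13, edgeR adjusted p = 5.11e-34). *Il1b*, the precursor of interleukin-1 beta, went from 1.21, 0.984 and 1.08 to 1992, 2012 and 1941 (log2 fold change 10.83, SE 0.06, edgeR adjusted p = 3.82e-40). *Tnf* was already transcribed with PBS, at 12.4, 15.4 and 15.4, and reached 1409, 1444 and 1426 (log2 fold change 6.63, SE 0.06, edgeR adjusted p = 2.42e-36). No library with PBS came near a library with LPS for any of the 3 genes, and *Tnf*, with the highest start, had the smallest fold.

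*Ccl2*, which encodes the monocyte attractant MCP-1, was high in both groups, at 110.3, 119 and 120.5 scaled FPKM with PBS and 1514, 1496 and 1456 with LPS (log2 fold change 3.67, SE 0.05, edgeR adjusted p = 2.11e-32). *Aifm1*, which encodes the mitochondrial flavoprotein AIF, had 6.22, 6.21 and 7.06 with PBS and 3.94, 3.77 and 4.00 with LPS (log2 fold change -0.73, SE 0.07, edgeR adjusted p = 1.00e-10). It was the 1 gene of this group that fell, with all 3 libraries with LPS below all 3 with PBS.

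**Figure D2:**
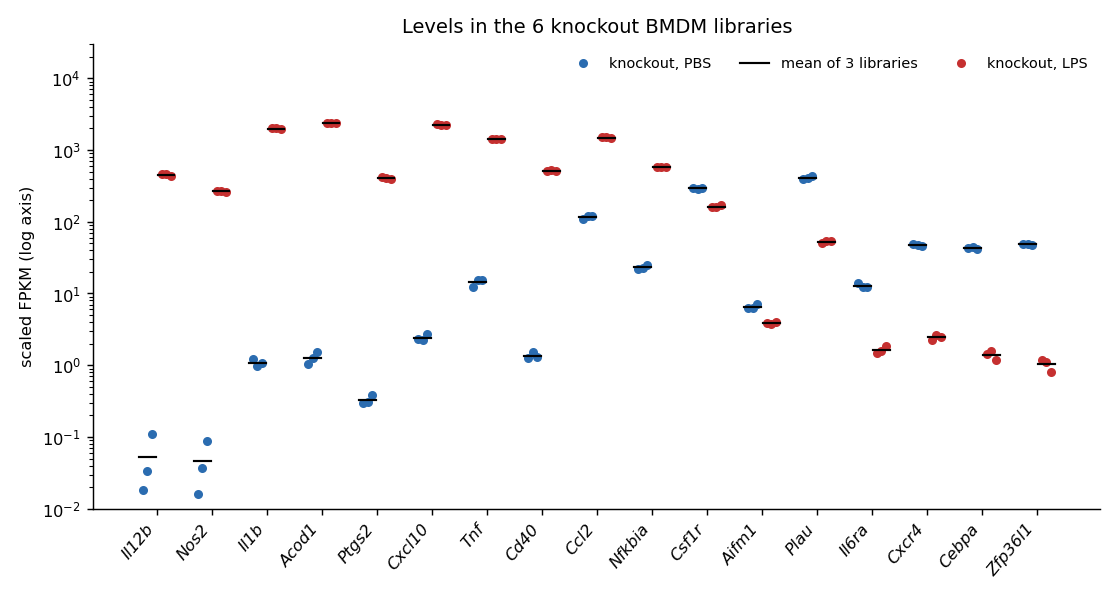
Each point is 1 of the 6 knockout libraries (blue PBS, red LPS), with black bars for the mean of 3; the y axis is scaled FPKM on a log axis. The points of a group lie close together beside the distance between groups, and the genes run from *Il12b* (0.018, 0.0335 and 0.109 with PBS; 456, 468 and 436 with LPS) to *Zfp36l1* (48.8, 48.5 and 47.4 with PBS; 1.18, 1.10 and 0.814 with LPS).

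Promoter sequence is shown for 4 of the genes that rose most in level or stand for an arm of the response: *Il6* for NF-kB targets, *Acod1* for the study's enzyme, *Ifit1* for interferon targets and *Cxcl10* for genes known to answer to both. Each is the 250 bases before the RefSeq start on GRCm38.p6, written in the direction of transcription, with matches to a motif in capitals. The motifs searched on both strands were NF-kB (GGGNNTTNCC), the interferon-stimulated response element or ISRE (GAAANNGAAA) and AP-1 (TGANTCA). The *Il6* window is chr5:30012864-30013113 on the plus strand, *Acod1* chr14:103046762-103047011 on the plus strand, *Ifit1* chr19:34640639-34640888 on the plus strand and *Cxcl10* chr5:92348890-92349139 on the minus strand. *Nos2* is not in the sequence table.
Il6: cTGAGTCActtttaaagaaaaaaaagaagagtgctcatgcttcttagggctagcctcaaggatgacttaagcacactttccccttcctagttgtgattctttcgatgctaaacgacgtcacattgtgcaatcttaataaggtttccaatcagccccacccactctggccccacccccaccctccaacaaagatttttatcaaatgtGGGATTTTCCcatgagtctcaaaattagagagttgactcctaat
Acod1: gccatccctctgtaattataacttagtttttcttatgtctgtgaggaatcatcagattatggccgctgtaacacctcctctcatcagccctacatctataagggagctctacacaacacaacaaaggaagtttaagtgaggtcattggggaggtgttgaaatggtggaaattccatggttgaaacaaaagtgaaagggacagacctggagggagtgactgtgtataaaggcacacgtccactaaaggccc
Ifit1: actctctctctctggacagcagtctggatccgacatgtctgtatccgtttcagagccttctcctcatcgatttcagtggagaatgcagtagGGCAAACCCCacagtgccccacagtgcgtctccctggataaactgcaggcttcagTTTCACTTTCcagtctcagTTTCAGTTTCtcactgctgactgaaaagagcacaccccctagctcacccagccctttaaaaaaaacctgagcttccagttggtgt
Cxcl10: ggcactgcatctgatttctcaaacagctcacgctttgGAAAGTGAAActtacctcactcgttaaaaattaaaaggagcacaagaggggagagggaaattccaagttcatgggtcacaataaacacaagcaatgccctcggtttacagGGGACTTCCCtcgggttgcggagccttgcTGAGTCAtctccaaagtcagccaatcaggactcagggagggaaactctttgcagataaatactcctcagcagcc

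The *Il6* window held 1 AP-1 match, 249 to 243 bases before the start, and 1 NF-kB match, 44 to 35 bases before it. The *Ifit1* window held 2 ISRE matches, at 104 to 95 and 85 to 76 bases, and 1 NF-kB match at 159 to 150 bases. The *Cxcl10* window had 1 match of each motif: ISRE at 213 to 204 bases, NF-kB at 103 to 94 and AP-1 at 74 to 68. No match to these letters lay in the *Acod1* window. A match is a description of letters and not a bound site.

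Over all 32851 mouse promoters in the table, 300 bases each (the 250 shown plus 50 after the start), 4.79% held the NF-kB letters, 3.44% the ISRE and 7.81% the AP-1 letters. Of the 3487 genes called higher, 2398 of 3452 symbols were matched to 3080 promoters, of which 7.08% held NF-kB, 6.23% ISRE and 7.08% AP-1. Among the 3781 promoters of genes called lower, the shares were 5.18%, 2.25% and 5.24%, and among the 5821 promoters of genes tested and not called 5.17%, 2.59% and 4.72%. The 24 promoters matched for the interferon-stimulated list, from 20 of its 28 genes, held the ISRE in 13 cases (54.2%) and NF-kB in 4.17%. The 28 promoters matched for cytokines and chemokines, from 25 of 40 genes, held NF-kB in 11 cases (39.3%) and the ISRE in 1 (3.57%). Each of these lists held AP-1 in 25% of its promoters. DNA replication and mitosis genes, which mostly fell, had 20 promoters matched, from 18 of 23 genes. Of these promoters, 3 (15%) held NF-kB, 0 the ISRE and 0 AP-1. These 3 lists were chosen for this count after the data had been seen.

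More genes of LPS sensing were higher than lower. Of 19 genes of the receptor complex and its adaptors, 10 were called higher, 2 lower and 7 were not called, with a median log2 fold change of 0.75. *Cd14*, the co-receptor, had 111, 111 and 118 scaled FPKM with PBS and 575, 572 and 572 with LPS (log2 fold change 2.34), and *Ly96*, which encodes MD-2, rose by 1.49. *Tlr4* itself fell, from 22.6, 22.5 and 22.3 to 12.1, 11.6 and 12.1 (log2 fold change -0.91, SE 0.05, edgeR adjusted p = 2.62e-16). Thus the co-receptors were higher and the signalling receptor lower, with no overlap of libraries in any of these cases.

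Among the adaptors and kinases, *Myd88* rose from 19.2, 20.1 and 20.1 to 123, 122 and 126 (log2 fold change 2.64, SE 0.04, edgeR adjusted p = 4.48e-30) and the kinase *Irak2* by 2.62 on the log2 scale. *Irak3*, which encodes the inhibitory kinase IRAK-M, went from 4.55, 4.43 and 4.15 to 17.8, 17.2 and 17.8 (log2 fold change 2.00, SE 0.06, edgeR adjusted p = 3.84e-23). On the interferon branch, *Ikbke* rose by 2.29, *Tbk1* by 1.58 and *Ticam1*, which encodes TRIF, by 1.05. *Tirap* (0.40), *Ticam2* (0.46), *Irak4* (-0.50) and *Traf3* (-0.07) were not called, and *Tab1*, a subunit that activates the kinase TAK1, fell by 0.91.

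NF-kB subunits and their inhibitors rose together: 14 of 15 were called higher, none lower, with a median of 3.29. *Nfkbia*, which encodes IkB-alpha, had 21.7, 23 and 24.6 scaled FPKM with PBS and 582, 574 and 588 with LPS (log2 fold change 4.66, SE 0.04, edgeR adjusted p = 1.83e-35). *Tnfaip3*, which encodes the deubiquitinase A20, went from 6.38, 7.01 and 6.17 to 249, 252 and 251 (log2 fold change 5.26, SE 0.04, edgeR adjusted p = 2.00e-36). The largest fold was that of *Nfkbiz*, a nuclear IkB protein needed for a subset of NF-kB targets, from 1.47, 1.64 and 1.59 to 132, 129 and 127 (log2 fold change 6.37).

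Among the subunits, *Nfkb2* rose by 3.83, *Nfkb1* by 3.01, *Rel* by 2.95, *Relb* by 2.33 and *Rela*, the most abundant subunit with PBS at 18.4, 17.8 and 18.1 scaled FPKM, by 1.39. The 1 member not called was *Nfkbid*, another nuclear IkB protein (log2 fold change 0.57, fold under 1.5).

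The AP-1, EGR and other immediate-early factors were split at 4 h. Of 17 tested, 8 were higher, 6 lower and 3 not called, with a median of -0.05. Higher were *Maff* (3.11), *Junb* (2.77), *Ier3* (2.56) and *Atf3*, a repressor of inflammatory genes, which went from 93.6, 93.5 and 94.2 to 305, 301 and 308 scaled FPKM (log2 fold change 1.70, SE 0.03, edgeR adjusted p = 6.65e-28). Lower were *Fos*, from 18.8, 21 and 19.5 to 6.85, 6.67 and 7.09 (log2 fold change -1.53, SE 0.07, edgeR adjusted p = 1.91e-18), *Jun* (-1.21), *Myc* (-1.63) and *Egr3* (-2.13). *Fosb*, also lower, was under 1 scaled FPKM, and its call was lost without knockout LPS replicate 1.

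Negative feedback genes moved in both directions. Of 18 phosphatases, RNA decay factors and SOCS proteins, 11 were higher, 5 lower and 2 not called, with a median of 2.71. *Socs3*, which encodes an inhibitor of gp130 receptor signalling, had 0.905, 1.00 and 0.843 scaled FPKM with PBS and 367, 367 and 382 with LPS (log2 fold change 8.65, SE 0.06, edgeR adjusted p = 1.07e-38). *Zfp36*, which encodes tristetraprolin, a protein that destabilises *Tnf* mRNA, rose from 26.4, 25.6 and 25.2 to 201, 194 and 201 (log2 fold change 2.95). Its paralog *Zfp36l1* went the other way, from 48.8, 48.5 and 47.4 to 1.18, 1.10 and 0.814 (log2 fold change -5.52, SE 0.08, edgeR adjusted p = 1.57e-30). All 3 genes had groups that did not overlap.

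The MAP kinase phosphatases split likewise. *Dusp2* rose from 1.71, 2.17 and 2.11 to 95.6, 89.5 and 93.6 scaled FPKM (log2 fold change 5.54) and *Dusp1* from 7.25, 6.95 and 6.81 to 44.9, 43.2 and 46.5 (2.68). *Dusp6*, which acts on ERK, had 24.3, 26.8 and 26.8 with PBS and 4.02, 3.66 and 3.88 with LPS (log2 fold change -2.75, SE 0.06, edgeR adjusted p = 1.10e-25). The other falls of the list were *Zfp36l2* (-2.07), *Pdlim2* (-0.79) and *Sigirr* (-2.82, at a level under 1 scaled FPKM).

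All 20 inflammatory cytokines tested, of 21 listed, were called higher, with a median of 7.23. Beside *Il6*, *Il1b* and *Tnf*, the subunits of the interleukin-12 family stood out: *Il12b*, shared by interleukin-12 and interleukin-23, went from 0.0180, 0.0335 and 0.109 to 456, 468 and 436 scaled FPKM (log2 fold change 13.08, SE 0.11, edgeR adjusted p = 1.30e-36), and *Il27* from 0.381, 0.355 and 0.335 to 324, 315 and 311 (log2 fold change 9.77). *Il12a* had no count with PBS and 5.30, 5.59 and 5.17 scaled FPKM with LPS, at least 260-fold higher against a floor of 3 counts over the group. *Il23a* reached only 0.837, 0.289 and 0.414.

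Other cytokines with no count in any of the 3 libraries with PBS were *Ifnb1* (interferon beta), *Csf2* (GM-CSF) and *Csf3* (G-CSF). With LPS *Ifnb1* had 2.89, 3.10 and 3.34 scaled FPKM, at least 63.4-fold higher by the same floor, *Csf2* 2.42, 3.25 and 2.86 (at least 62.3-fold) and *Csf3* 2.26, 2.61 and 2.84 (at least 98.4-fold). These 3 transcripts thus stayed low beside *Tnf* or *Il1b* in the same libraries.

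Cytokines that restrain the response rose as well. *Il10* went from 0.486, 0.679 and 0.522 to 14.9, 14.4 and 16.9 scaled FPKM (log2 fold change 4.75, SE 0.14, edgeR adjusted p = 4.41e-23) and *Il1rn*, which encodes the interleukin-1 receptor antagonist, from 5.69, 6.62 and 6.2 to 233, 236 and 236 (log2 fold change 5.25). *Il15*, *Csf1*, *Il18* and *Ebi3* rose by 5.22, 4.25, 3.56 and 3.25. The smallest rise of the list was that of *Osm*, which encodes oncostatin M (1.44). *Lif* was too low to be tested.

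Chemokines rose nearly as a body: 17 of 18 tested were called higher, with a median of 7.28, and the exception was *Ccl6* (log2 fold change -0.23, not called). The most abundant with LPS was *Ccl3*, a ligand of the CCR1 receptor, which had 86.1, 85.4 and 86.5 scaled FPKM with PBS and 3029, 2941 and 2927 with LPS (log2 fold change 5.11, SE 0.04, edgeR adjusted p = 3.54e-36), and the related *Ccl4* had 71.0, 74.1 and 73.9 and 2042, 1952 and 2011. *Ccl5* started far lower, at 0.774, 0.755 and 0.446, and reached 1877, 1819 and 1846 (log2 fold change 11.41, SE 0.08, edgeR adjusted p = 8.31e-38). The monocyte attractants *Ccl7* and *Ccl12* rose by 4.52 and 7.05, and *Cxcl5* was too low to be tested.

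The CXC chemokines fell into those known to attract T cells and those known to attract neutrophils. In the T cell group, *Cxcl10* rose from 2.31, 2.22 and 2.70 to 2302, 2265 and 2204 scaled FPKM (log2 fold change 9.88, SE 0.06, edgeR adjusted p = 3.92e-39), whereas *Cxcl9* reached 27.6, 22.7 and 22.9 and *Cxcl11* 9.11, 8.43 and 8.53. In the neutrophil group, *Cxcl2* rose from 0.667, 0.748 and 0.889 to 140.2, 141 and 133 (log2 fold change 7.5) and *Cxcl1* from 0.0943, 0.0176 and 0.0228 to 19.99, 20.01 and 17.1. *Cxcl3* had 1 count over the 3 libraries with PBS and 2779 with LPS, a ratio of 4559 (95% counting interval 818 to 180124). With LPS the level of *Cxcl10* was above that of *Ccl5* in all 3 libraries, and those of *Cxcl9* and *Cxcl11* far below both.

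Receptors for chemoattractants and growth factors were balanced, with 8 of 18 higher, 8 lower and 2 not called, and their median of -0.02 rose to 0.03 in 1 of the 24 alternatives. Receptors for formyl peptides, which are shed by bacteria, rose: *Fpr2* had 0.0819, 0.305 and 0.165 scaled FPKM with PBS and 26.9, 23.3 and 24.2 with LPS (log2 fold change 7.01, SE 0.16, edgeR adjusted p = 6.05e-26). *Ccrl2*, an atypical receptor that presents chemerin, went from 2.95, 3.40 and 3.09 to 215, 224 and 212 (6.10). *Ccr7*, the lymph node homing receptor, had 1 count with PBS and 0.778, 1.83 and 0.941 scaled FPKM with LPS, a ratio of 197 (95% counting interval 34.7 to 7839).

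Chemokine receptors of resting macrophages and monocytes fell. *Cxcr4*, a receptor that holds cells in the marrow, had 49.6, 47.2 and 45.8 scaled FPKM with PBS and 2.24, 2.66 and 2.49 with LPS (log2 fold change -4.27, SE 0.08, edgeR adjusted p = 1.96e-27). *Ccr2* fell by 3.31 and *Cx3cr1* by 2.34 on the log2 scale. *Csf1r*, the receptor of the growth factor on which the culture depends, went from 299.5, 289 and 299 to 158, 160.4 and 169 (log2 fold change -0.86, SE 0.03, edgeR adjusted p = 2.45e-20). Its groups did not overlap, and *Csf1r* was 1 of the 5 largest falls in level among called genes with a symbol.

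All 28 interferon-stimulated genes were called higher in the knockout, with a median log2 fold change of 6.23 and a range of 1.25 to 10.92. *Rsad2*, which encodes viperin, an antiviral enzyme, had 5.16, 6.02 and 5.14 scaled FPKM with PBS and 3381, 3342 and 3239 with LPS (log2 fold change 9.25, SE 0.06, edgeR adjusted p = 3.46e-38), the highest level of the list. *Ifit1*, which encodes a sensor of foreign mRNA caps, went from 2.17, 2.59 and 2.42 to 1272, 1281 and 1240.1 (log2 fold change 9.04, SE 0.07, edgeR adjusted p = 1.84e-37). *Isg15*, a ubiquitin-like modifier, went from 2.82, 3.70 and 2.68 to 842, 815 and 848 (log2 fold change 8.07, SE 0.09, edgeR adjusted p = 5.28e-34). The libraries of the 2 groups did not overlap for any of the 28.

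Several of the rises started from very low levels. *Oasl1*, which encodes a repressor of *Irf7* translation, had 0.0407, 0.0884 and 0.115 scaled FPKM with PBS and 157, 154 and 165 with LPS (log2 fold change 10.92, SE 0.10, edgeR adjusted p = 1.16e-35). *Mx1*, an antiviral GTPase, had 1.81, 1.84 and 1.54 and 712, 719.6 and 747 (8.70). *Usp18*, which removes ISG15 and damps interferon receptor signalling, had 0.824, 0.862 and 1.13 and 190.2, 186 and 188 (7.66). The smallest rises were those of *Lgals3bp* (1.84) and *Ifi27l2a* (1.25, not called with library totals alone).

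Compared with the wild type, the rises of this list were larger on the log2 scale, from a lower start to a lower end. The wild-type median was 4.41, and the difference between the responses, knockout minus wild type, was called above 0 for 28 of 28 genes (25 to 28 over the alternatives), beside 3.02% of all genes tested. With PBS, all 3 knockout libraries lay below all 3 wild-type libraries for 28 of 28 genes, with a median of 18.4% of the wild-type mean (5.94% to 52.7%). With LPS the knockout was again below for 28 of 28 without overlap, with a median of 65.1% (22.1% to 84.1%). *Isg15* shows the form: wild-type libraries had 20.5, 22.5 and 18.8 scaled FPKM with PBS and 1156, 967 and 1007 with LPS, so that both ends were above the knockout while the log2 fold change was 5.66 against 8.07. *Oasl2* had the largest difference among the genes with over 1 scaled FPKM with PBS, 1.44, 1.95 and 1.58 rising to 134, 134 and 134 in the knockout and 19.2, 23.6 and 18.4 rising to 215, 208 and 212 in the wild type (difference 2.96, SE 0.10, edgeR adjusted p = 7.09e-19). The share of all genes tested whose libraries lay apart between genotypes was not counted. Other lists lay apart as well. With PBS, 15 of 20 antigen presentation and costimulation genes were below the wild type without overlap and 1 was above. Of 23 replication and mitosis genes, 1 was below and 20 were above with PBS.

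**Figure D3:**
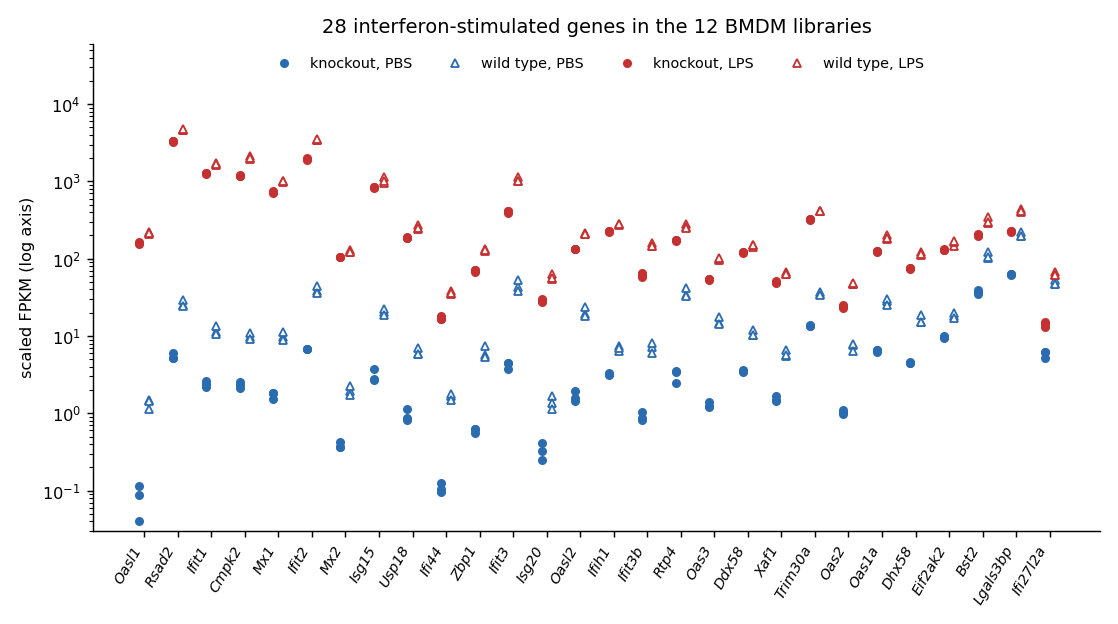
Levels of the 28 interferon-stimulated genes in the 12 BMDM libraries, in scaled FPKM on a log axis, with 1 point per library (circles knockout, open triangles wild type; blue PBS, red LPS) and genes ordered by their log2 fold change in the knockout. In both treatments the knockout circles lie below the wild-type triangles for every gene, and the gap is wider with PBS (median 18.4% of the wild-type mean) than with LPS (65.1%).

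The GBP and IRG GTPases, which attack vacuoles that hold microbes and answer to interferon gamma as well as LPS, were called higher in 15 of 15 cases, with a median of 6.98. *Gbp2* had 7.70, 7.91 and 7.84 scaled FPKM with PBS and 1013, 1016 and 973 with LPS (log2 fold change 7.0, SE 0.05, edgeR adjusted p = 6.70e-39), and *Gbp5* 2.06, 1.81 and 1.93 and 550.1, 553 and 535 (8.14). *Irgm1* went from 4.75, 5.39 and 4.94 to 208, 209.7 and 206 (5.37). *Gm4841* had no count with PBS and stayed under 1 scaled FPKM with LPS (at least 22.4-fold higher). The difference between the genotypes' responses was called above 0 for 4 genes (*Irgm1*, *Irgm2*, *Gbp6* and *Tgtp2*) and below 0 for *Iigp1* (-0.73, SE 0.17, edgeR adjusted p = 0.00206). Of these, *Irgm1* kept its call in all 23 alternatives. *Irgm2*, *Iigp1* and *Tgtp2* each lost it in 2 and *Gbp6* in 5, and in 1 alternative each the differences of *Gbp6* and *Tgtp2* turned to -0.49 and -0.09. With PBS the knockout had a median of 39.5% of the wild-type level, and its 3 libraries lay below the 3 wild-type libraries for 14 of 15. With LPS the median was 58.0%, and the knockout libraries lay below for 15 of 15. The share of all genes tested that lay apart in this way was not counted.

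Of 8 interferon regulatory factors tested, 6 were called higher and none lower, with a median of 1.51. *Irf4* (-0.58) was not called as given here but was called lower in 12 of the 24 alternatives. *Irf7*, itself an interferon target that amplifies interferon production, had 1.55, 1.60 and 1.5 scaled FPKM with PBS and 165, 155 and 162 with LPS (log2 fold change 6.69, SE 0.08, edgeR adjusted p = 8.19e-33). *Irf1* rose from 8.10, 8.64 and 9.63 to 230.3, 228 and 229 (4.71). *Irf3*, which acts as a preformed protein, was not called (6.67, 7.06 and 6.97 and 6.12, 6.4 and 5.59).

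*Irf8*, a lineage factor of monocytes and macrophages, rose from 21, 20.2 and 20.6 to 52.4, 46.3 and 49.5 scaled FPKM in the knockout (log2 fold change 1.26, SE 0.04, edgeR adjusted p = 4.57e-22), a rise not called with library totals alone. In the wild type it rose from 25.0, 25.6 and 26 to 244, 227 and 234 (log2 fold change 3.20). The starts were near each other while the knockout ended far below the wild type, and the difference between the responses was -1.94, SE 0.06, edgeR adjusted p = 1.61e-20. It kept its call in all 23 alternatives run for the difference. *Irf7* differed the other way (2.85, SE 0.10, edgeR adjusted p = 3.15e-18), from 17, 21.5 and 16.6 with PBS to 276, 254 and 263 with LPS in the wild type.

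Receptors, JAKs and STATs of the interferon and related pathways were mostly higher, with 14 of 19 higher, 3 lower, 2 not called and a median of 1.42. *Jak2* had 7.54, 7.18 and 7.13 scaled FPKM with PBS and 237, 239 and 234 with LPS (log2 fold change 5.02, SE 0.04, edgeR adjusted p = 1.42e-36). Both receptor chains of type I interferon were higher, *Ifnar1* by 1.52 and *Ifnar2* by 0.89.

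The 3 falls of this list were receptor chains. *Il6ra*, the interleukin-6 receptor, went from 13.8, 12.2 and 12.4 to 1.48, 1.60 and 1.88 scaled FPKM (log2 fold change -2.97, SE 0.08, edgeR adjusted p = 2.46e-24), and *Il6st*, which encodes its partner gp130, from 22.2, 22.3 and 21.7 to 5.49, 5.26 and 4.96 (-2.07). *Ifngr1* went from 73.3, 72.2 and 73.3 to 30.2, 31.3 and 29.4 (-1.27), whereas *Ifngr2* rose by 1.51. The receptor of interleukin-6 was thus lower in the same libraries in which *Il6* was higher.

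*Acod1* stood nearly alone among the genes of itaconate and the citrate cycle. Of 25 genes, 3 were called higher (*Acod1*, *Slc13a3* and *Dld*), *Idh1* was called lower and 21 were not called, with a median of 0.21. *Slc13a3*, a carrier that takes up itaconate and other dicarboxylates, rose from 0.190, 0.171 and 0.312 to 1.34, 1.41 and 1.39 scaled FPKM (log2 fold change 2.65, SE 0.21, edgeR adjusted p = 1.68e-12). *Dld*, the dihydrolipoamide dehydrogenase shared by several dehydrogenase complexes, went from 23.3, 24 and 23.5 to 54.8, 55.2 and 52.2 (1.19, not called with library totals alone). *Idh1*, the cytosolic isocitrate dehydrogenase, went from 80.6, 77.0 and 79.7 to 26.7, 28 and 26.5 (log2 fold change -1.55, SE 0.04, edgeR adjusted p = 1.51e-23).

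The enzymes before and after the step of ACOD1 moved little. *Cs*, the citrate synthase, had 25.9, 25.3 and 25.6 scaled FPKM with PBS and 35.7, 36.4 and 36.3 with LPS (log2 fold change 0.50, fold under 1.5). *Idh2*, the mitochondrial isocitrate dehydrogenase that uses NADP, had 25.9, 26.4 and 26.1 and 20.7, 18.4 and 20.4 (-0.40). *Sdha*, the succinate dehydrogenase subunit that itaconate inhibits as a protein, had 46.2, 44.5 and 46.4 and 52.1, 53.0 and 52.0 (0.20). The sign of the list's median depends on the scaling: with library totals alone it was -0.50, with 2 genes higher and 11 lower.

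For *Acod1* the wild type had 0.932, 1.09 and 0.993 scaled FPKM with PBS and 2559, 2583 and 2679 with LPS. Its log2 fold change was 11.34, and the difference between the responses was -0.46, SE 0.12, edgeR adjusted p = 0.00454, a fold under 1.5 that was not called.

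Mitochondrial import, the machinery with which *Aifm1* was listed, moved little. Of 12 genes, 3 were higher (*Timm23* 1.00, *Tomm70a* 0.70 and *Tomm22* 0.59), *Aifm1* was lower and 8 were not called, with a median of 0.14. The rises of *Tomm70a* and *Tomm22* turned negative with library totals alone. *Tomm22* also lost its call with TMM, without the filter on low counts and with limma on log2(scaled FPKM + 1). It was lost too without knockout PBS replicate 3 and without knockout LPS replicate 3. *Chchd4*, the AIF-bound oxidoreductase of the intermembrane space, had 3.35, 3.55 and 3.25 scaled FPKM with PBS and 3.30, 3.65 and 3.67 with LPS, and its groups overlapped. None of the 3 rises was called with library totals alone, where 5 genes were lower and the median was -0.56. *Aifm1* was called lower in both genotypes, and the difference between its responses was 0.13, SE 0.10, edgeR adjusted p = 0.423.

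**Figure D4:**
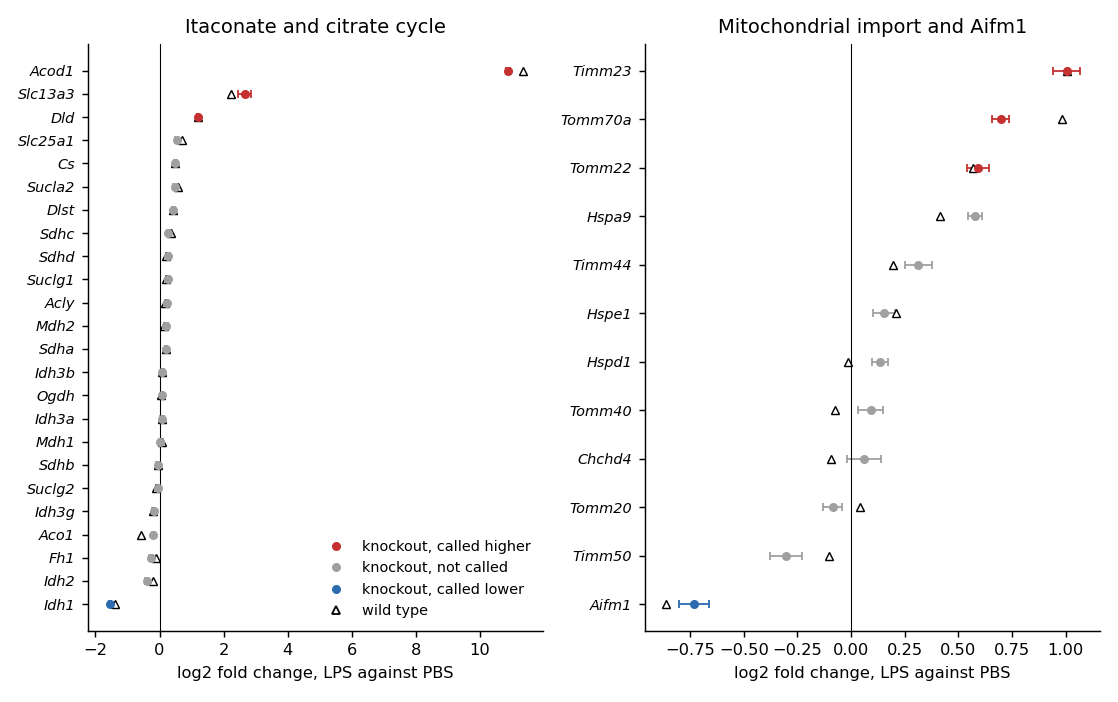
Log2 fold change of LPS against PBS for genes of itaconate and the citrate cycle (left) and the 12 genes of mitochondrial import with *Aifm1* (right), with circles and bars for the knockout estimate and its SE (red called higher, grey not called, blue called lower) and open triangles for the wild type. *Acod1* lies at 10.88 in the knockout, far from the other genes of its pathway, and *Idh1* and *Aifm1* are the called falls of their panels.

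Several genes that feed nitric oxide synthase rose with *Nos2*. Of 11 genes of nitric oxide and arginine metabolism, 8 were called higher and none lower, with a median of 1.09. The arginine carrier *Slc7a2* had 0.759, 0.771 and 0.740 scaled FPKM with PBS and 66.7, 64.6 and 65.4 with LPS (log2 fold change 6.43, SE 0.06, edgeR adjusted p = 1.54e-35). *Ass1*, an enzyme on the route from citrulline back to arginine, rose from 0.601, 0.641 and 0.762 to 11.5, 10.8 and 11.7 (4.09). *Asl*, the enzyme of the next step on that route, was not called. *Gch1*, which makes the cofactor tetrahydrobiopterin, rose from 1.95, 1.75 and 1.83 to 27.3, 27.9 and 26.8 (3.89). *Arg1*, which competes for arginine in alternatively activated cells, had 17 counts with PBS and 1 with LPS.

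Oxidant and antioxidant genes were mixed. Of 24 genes, 11 were higher, 3 lower and 10 not called, with a median of 0.55 that turned to -0.15 with library totals alone. *Cybb*, the catalytic subunit of the phagocyte NADPH oxidase, rose from 139.5, 143 and 141 to 716, 734 and 702 scaled FPKM (log2 fold change 2.35, SE 0.04, edgeR adjusted p = 1.78e-29). *Sod2*, the mitochondrial superoxide dismutase, rose from 5.05, 5.30 and 5.19 to 113, 112 and 111 (log2 fold change 4.43, SE 0.04, edgeR adjusted p = 3.54e-36). *Slc7a11*, the cystine carrier, rose by 4.40, *Prdx5* by 2.10 and *Txnrd1* by 1.42.

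The falls were *Gclc*, the catalytic subunit of glutathione synthesis, from 11.5, 11.6 and 12.9 to 4.07, 3.61 and 3.97 scaled FPKM (log2 fold change -1.63, SE 0.07, edgeR adjusted p = 9.80e-19), *Hmox1*, the heme oxygenase, from 185, 192 and 203 to 102, 97.8 and 113 (-0.90), and *Cat*, the catalase, from 78.2, 75.5 and 81.2 to 48.3, 51.4 and 51.7 (-0.63). *Nfe2l2*, which encodes the factor NRF2 that drives many of these genes, had 60.8, 64.6 and 63.6 and 61.7, 66.3 and 65.2, with overlapping groups. Targets of one factor thus appeared on both sides: *Slc7a11* and *Txnrd1* higher, *Gclc* and *Hmox1* lower.

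Glycolysis genes were called higher in 14 of 19 cases and lower in none, with a median of 1.2. The largest rise was that of the hexose carrier *Slc2a6*, from 4.61, 5.24 and 5.09 to 176, 169 and 181 scaled FPKM (log2 fold change 5.14). *Pfkfb3*, which makes the activator of phosphofructokinase, went from 5.12, 5.32 and 5.14 to 52.5, 52.3 and 54.2 scaled FPKM (log2 fold change 3.35, SE 0.05, edgeR adjusted p = 1.43e-30), and *Hk2* from 9.88, 9.51 and 9.53 to 62.3, 63.9 and 62.0 (2.70). *Slc2a1* rose by 2.06 and *Hif1a* by 1.71. The abundant lower steps moved less, with *Ldha* at 0.66, *Eno1* at 0.65 and *Pgam1* at 0.62, rises that turned to falls with library totals alone, and *Pkm*, *Aldoa* and *Gapdh* not called.

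The prostaglandin pathway was reordered, with 5 of 15 genes higher, 6 lower, 4 not called and a median of -0.15. The inducible cyclooxygenase *Ptgs2* had 0.293, 0.309 and 0.383 scaled FPKM with PBS and 418, 402 and 395 with LPS (log2 fold change 10.28, SE 0.06, edgeR adjusted p = 3.92e-39), and the prostaglandin E synthase *Ptges* went from 0.189, 0.218 and 0.392 to 13.1, 13.7 and 15.1 (5.75). The constitutive cyclooxygenase *Ptgs1* fell, from 4.41, 4.28 and 4.11 to 1.2, 1.23 and 1.66 (log2 fold change -1.67, SE 0.10, edgeR adjusted p = 9.07e-15). *Hpgd*, which breaks prostaglandins down, fell by 2.79 and *Hpgds*, which makes prostaglandin D, by 1.41. The inducible pair *Ptgs2* and *Ptges* thus rose in the libraries in which *Ptgs1*, *Hpgd* and *Hpgds* fell.

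Cholesterol genes were higher in 10 of 18 cases and lower in none, with a median of 0.74. *Hmgcs1*, the HMG-CoA synthase at the start of the pathway, rose from 29.5, 28.5 and 27.9 to 119, 117 and 114 scaled FPKM (log2 fold change 2.03, SE 0.04, edgeR adjusted p = 2.29e-28), and *Abcg1*, which exports cholesterol, from 30.8, 30.1 and 29.9 to 63.4, 61.9 and 63.5 (1.06). *Ch25h*, which makes the antiviral sterol 25-hydroxycholesterol, rose from 0.0255, 0.214 and 0.0308 to 2.87, 2.46 and 2.89 scaled FPKM (log2 fold change 4.76, SE 0.36, edgeR adjusted p = 6.15e-13). *Apoe*, at 2508, 2419 and 2446 with PBS and 2712, 2713 and 2785 with LPS, and *Lpl* were not called.

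Inflammasome genes were higher in 10 of 13 cases, with 1 lower and a median of 1.13. *Nlrp3*, the sensor that is primed by LPS, rose from 15.2, 15.7 and 17.1 to 191, 191 and 190.0 scaled FPKM (log2 fold change 3.58, SE 0.04, edgeR adjusted p = 1.73e-32), and *Casp4*, which encodes mouse caspase-11, the receptor of cytosolic LPS, from 3.66, 3.70 and 3.64 to 81.6, 84.9 and 82.8 (log2 fold change 4.50, SE 0.05, edgeR adjusted p = 5.93e-34). *Casp1* rose by 2.78, *Gsdmd*, which encodes the pore protein gasdermin D, by 2.13 and *Aim2* by 2.83. The adaptor *Pycard* (0.28) and the flagellin receptor gene *Naip5* (0.04) were not called, and *Nlrc4* fell by 0.90.

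Lineage factors of the macrophage split into 8 higher, 7 lower and 3 not called of 18, with a median of 0.33 that was -0.38 with library totals alone. Within the C/EBP family the members exchanged places: *Cebpb* rose from 10.1, 10.4 and 10.4 to 84.4, 79.1 and 93.2 scaled FPKM (log2 fold change 3.05, SE 0.07, edgeR adjusted p = 7.19e-26) and *Cebpd* from 1.46, 1.90 and 1.64 to 18.2, 16.6 and 18.4 (3.40). *Cebpa* fell from 43.5, 45.2 and 42.3 to 1.45, 1.60 and 1.17 (log2 fold change -4.94, SE 0.08, edgeR adjusted p = 5.84e-30). *Spi1*, which encodes PU.1, rose by 1.74.

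*Pparg*, a lipid-sensing nuclear receptor, fell from 15.1, 14.6 and 14.6 to 1.43, 1.03 and 1.33 scaled FPKM (log2 fold change -3.56, SE 0.09, edgeR adjusted p = 4.53e-24). *Klf4* overlapped between groups. *Bach1*, a repressor of heme oxygenase and other antioxidant genes, had 19.5, 18.7 and 18.8 with PBS and 25.7, 25.4 and 25.5 with LPS (0.43, fold under 1.5), whereas in the wild type it went from 20.7, 20.1 and 20.2 to 69.5, 70.0 and 74.7 (1.81). The difference was -1.38, SE 0.05, edgeR adjusted p = 7.89e-18, called in all 23 alternatives run for it.

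Of 12 markers of alternative activation tested, 2 were higher (16.7%), 4 lower (33.3%) and 6 not called, with a median of -0.25. With so few genes, these shares were not far from the 24.8% and 28.6% of all genes tested. *Cd163*, the hemoglobin scavenger receptor, went from 3.35, 3.30 and 3.45 to 0.271, 0.228 and 0.367 scaled FPKM (log2 fold change -3.57, SE 0.14, edgeR adjusted p = 1.15e-19) and *Clec10a*, a galactose lectin, from 6.0, 5.68 and 5.89 to 1.2, 1.49 and 1.11 (-2.19). *Mgl2* was the 1 called member whose groups overlapped, at under 1 scaled FPKM, and its call was lost in 5 of 24 alternatives, 3 of them without 1 library each. The rises were *Il4ra* (1.95) and *Cd83* (3.27), which is better known as a marker of activated antigen-presenting cells. *Mrc1*, at 88.5, 85.2 and 93.0 and 79.2, 77.6 and 78.3, was not called.

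Phagocytic receptors were higher in 10 of 20 cases, lower in 3 and not called in 7, with a median of 0.51 that was -0.19 with library totals alone. *Marco*, a scavenger receptor for bacteria, rose from 0.643, 0.513 and 0.667 to 11.0, 11.5 and 10.9 scaled FPKM (log2 fold change 4.20, SE 0.15, edgeR adjusted p = 1.32e-20), *Msr1* from 61.7, 62.9 and 62.9 to 243, 243 and 243 (1.96) and the Fc receptor *Fcgr1* from 41.0, 41.3 and 38.7 to 210.5, 202 and 204 (2.35). The inhibitory Fc receptor *Fcgr2b* rose by 2.31. *Axl*, a receptor for dying cells, rose by 1.63, while its ligand *Gas6* fell from 189.5, 191 and 189.8 to 113, 114 and 121 (-0.71). *Clec7a*, the beta-glucan receptor dectin-1, fell by 0.72 and the inhibitory receptor *Cd300a* by 2.32.

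Adhesion and migration genes were higher in 12 of 21 cases and lower in 2, with a median of 1.93. *Icam1*, the ligand of leukocyte integrins, rose from 13.6, 13.1 and 13.7 to 503, 503 and 503 scaled FPKM (log2 fold change 5.22, SE 0.04, edgeR adjusted p = 1.84e-37), and *Vcam1* from 0.462, 0.308 and 0.371 to 39.4, 39.0 and 37.2 (6.66). *Mmp13* and *Mmp14*, matrix metalloproteinases, rose by 6.58 and 5.16, and the fibronectin receptor subunit *Itga5* by 2.54. *Plau*, which encodes the protease urokinase, fell from 395, 409 and 435 to 51.0, 53.1 and 53.8 (log2 fold change -2.97, SE 0.04, edgeR adjusted p = 5.16e-31), the largest fall in level among called genes with a symbol. Its receptor *Plaur* rose from 30.1, 29.5 and 30.1 to 113, 112 and 116 (1.93). The endothelial marker sums given above were also higher with LPS, and their part in the rise of *Vcam1* was not tested.

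Antigen presentation and costimulation genes were higher in 16 of 20 cases and lower in none, with a median of 1.95. *Cd40* had 1.26, 1.54 and 1.29 scaled FPKM with PBS and 508, 523 and 514 with LPS (log2 fold change 8.55, SE 0.06, edgeR adjusted p = 1.92e-38). *Cd274*, which encodes the inhibitory ligand PD-L1, went from 9.45, 9.85 and 8.89 to 769.8, 777 and 759.9 (6.35), and the peptide transporter *Tap1* from 6.94, 6.76 and 6.29 to 121, 119.9 and 124 (4.19). Class I genes *H2-K1* and *B2m* rose by 1.60 and 1.45. Of class II, *H2-Ab1* and *Cd74* rose by 0.99 and 1.06, and *H2-Aa*, *H2-Eb1*, *H2-DMa* and *H2-DMb1* were not called.

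Replication and mitosis genes were the list with the largest share of falls: 20 of 23 were called lower, 2 were not called and 1 was higher, with a median of -1.80. The replication helicase subunit *Mcm2* went from 11.5, 11.7 and 11.7 to 1.81, 1.85 and 1.79 scaled FPKM (log2 fold change -2.68, SE 0.06, edgeR adjusted p = 9.93e-27) and the mitotic kinase *Plk1* from 14.7, 12 and 15.1 to 1.92, 2.09 and 1.5 (-2.90). *Ccnd1*, the cyclin that answers to growth factors, went from 59.2, 59.9 and 59.97 to 14.3, 13.4 and 14.1 (-2.10). The rise was that of *Cdkn1a*, which encodes the cell cycle inhibitor p21, from 33.0, 34.5 and 33.5 to 597, 596 and 598 (log2 fold change 4.15, SE 0.04, edgeR adjusted p = 3.68e-36). *Mki67* fell less, by 0.81, and *Pcna*, at 188, 198 and 198 and 166, 165 and 163, was not called.

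Of 20 cytosolic ribosomal protein genes none was called, with log2 fold changes from -0.02 to 0.51 and a median of 0.28, beside 24.8% and 28.6% called higher and lower of all genes tested. All their folds were under 1.5. For 19 of the 20, all 3 libraries with LPS lay above all 3 with PBS, beside 80.8% of all genes tested without overlap in either direction. With library totals alone the median was -0.42 and 3 were lower. Reference genes often used to normalise were not all level: *Hprt* (0.09), *Eef2* (0.06), *Tbp* (-0.02) and *Gusb* (-0.04) were not called, whereas *Actb* (1.2) and *Ywhaz* (1.2) were called higher. With library totals alone 1 of the 10 reference genes was higher and 5 were lower. *Actb* went from 1439.8, 1453 and 1485 to 3358, 3275 and 3405 scaled FPKM, and *Gapdh* from 16.4, 17.2 and 16.1 to 25.3, 23.6 and 23.7.

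Of the 10 largest rises by fold, 3 were of genes in none of the lists. *Edn1*, which encodes endothelin-1, had 2 counts over the 3 libraries with PBS and 22333 with LPS, a ratio of 18318 (95% counting interval 5070 to 151265), and reached 212, 209 and 205 scaled FPKM. *Il2ra*, the alpha chain of the interleukin-2 receptor, had no count with PBS and 5.64, 6.0 and 4.99 with LPS, at least 873-fold higher. *Hdc*, which makes histamine, went from 0.0166, 0 and 0.00669 to 17.6, 16.1 and 16.1 (log2 fold change 10.93, SE 0.14, edgeR adjusted p = 6.76e-32). For these genes the fold rests on few counts with PBS, and the level with LPS is the firmer value.

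The largest falls took genes to or near 0. *Sox4*, a transcription factor, had 3.67, 3.52 and 3.18 scaled FPKM with PBS and 0, 0.0339 and 0.0746 with LPS (log2 fold change -6.65, SE 0.24, edgeR adjusted p = 1.16e-20), and *Lpar5*, a receptor for lysophosphatidic acid, 6.33, 6.35 and 6.35 and 0.0376, 0.107 and 0.0472 (-6.51). *Bmf*, a BH3-only cell death gene, had 2.91, 2.58 and 2.73 and 0.0217, 0.0309 and 0.0409 (-6.44). *Zfp395*, *Plekhg3* and *Depdc1b* fell by 6.16, 6.17 and 6.05. *Frat1* had 255 counts with PBS and 2 with LPS, a ratio of 77.7 (95% counting interval 21.3 to 645). *Gm15513* and *Trav14n-3* had no count with LPS (at least 44.1-fold and 27.4-fold lower), and *5031425F14Rik* had 545 counts with PBS and 1 with LPS.

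Among called genes with a symbol, the largest rise in level was that of *Rn18s-rs5*, a locus related to ribosomal RNA of the small subunit, from 1742, 2013 and 2025 to 9763, 8950.3 and 8891 scaled FPKM (log2 fold change 2.26, SE 0.13, edgeR adjusted p = 1.18e-15). Its reads made up 0.427% to 0.494% of all counts with PBS and 1.34% to 1.46% with LPS. Poly(A) selection is meant to remove ribosomal RNA, and the part of this share in the other results was not tested. After it came *Rsad2*, *Ccl3*, *Acod1* and *Cxcl10*. The largest falls in level after *Plau* were *Sirpa*, which encodes the receptor of the do-not-eat-me signal CD47, from 429, 433 and 433 to 247, 257 and 255 (log2 fold change -0.77, SE 0.03, edgeR adjusted p = 1.68e-19), *Csf1r*, *Adam8* (-1.18) and *Dhrs3*, a retinaldehyde reductase (-2.16).

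Set beside the wild type, most of the response had the same direction. In the wild type 7886 genes were called between LPS and PBS, which is 56.1% of those tested. Of the genes called in the knockout, 3186 were higher in both genotypes and 3543 lower in both, 301 were higher in the knockout alone and 478 lower in the knockout alone, and 3 were lower in the knockout and higher in the wild type. A call in 1 genotype alone is no test of a difference. The test of the difference between the responses called 799 genes, which is 5.68% of those tested, with 425 above 0 (3.02%) and 374 below 0 (2.66%). Of the 425, 162 were higher with LPS in both genotypes and 150 lower in both. Of the 374, 174 were higher in both and 74 were higher in the wild type and not called in the knockout.

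Among the genes named above, the largest called difference was that of *Ccl5*. Wild-type libraries had 11.8, 13.2 and 12.8 scaled FPKM with PBS and 2170.1, 1914 and 1912 with LPS, so that the knockout was far below the wild type with PBS and close below it with LPS (difference 4.10, SE 0.15, edgeR adjusted p = 2.36e-18). *Oasl1* had 1.14, 1.5 and 1.46 and 222, 206 and 215 in the wild type (difference 3.63, SE 0.25, edgeR adjusted p = 3.49e-12). *Il1b* differed with LPS instead: the knockout reached 1992, 2012 and 1941 and the wild type 1021, 999.7 and 966 from like starts (difference 0.85, SE 0.14, edgeR adjusted p = 2.55e-05). These 3 differences kept their call in all 23 alternatives.

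Neutrophil attractants ended higher in the knockout. *Cxcl2* reached 140.2, 141 and 133 scaled FPKM with LPS against 39.9, 42.9 and 37.7 in the wild type (difference 1.47, SE 0.20, edgeR adjusted p = 2.20e-06). *Cxcl1* reached 19.99, 20.01 and 17.1 against 6.65, 7.13 and 6.04 (2.11, SE 0.71, edgeR adjusted p = 0.0372) and *Cxcl3* 16.0, 16.0 and 15.7 against 5.75, 5.79 and 5.71 (3.32, SE 1.07, edgeR adjusted p = 0.0273). The call of *Cxcl2* held in all alternatives. That of *Cxcl1* was lost without any 1 of 5 libraries, and that of *Cxcl3* without any 1 of 3 libraries and without the filter on low counts. *Marco* (1.83, SE 0.28, edgeR adjusted p = 1.06e-05), *Mmp9* (1.45, SE 0.24, edgeR adjusted p = 3.93e-05) and *Irak3* (1.15, SE 0.09, edgeR adjusted p = 2.33e-11) also differed above 0 in all alternatives.

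*Cxcl9*, a classical interferon gamma target, ended lower: 27.6, 22.7 and 22.9 scaled FPKM with LPS in the knockout against 364, 329 and 338 in the wild type. The difference between the responses was -2.94, SE 0.75, edgeR adjusted p = 0.00483, and without knockout PBS replicate 1, the library with the highest of 3 very low starts, it was -1.53 and not called (edgeR adjusted p = 0.479). *P2ry12* and *P2ry13*, purinergic receptors, differed by -0.99 and -1.23, and the prostaglandin E receptor *Ptger4* by -0.92. *P2ry12* had 1.68, 1.96 and 1.41 with LPS in the knockout and 3.82, 3.31 and 3.77 in the wild type.

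Besides those of *Ccl5*, *Oasl1* and *Cxcl9*, the largest called differences by fold among genes that met the limits on counts and level were, above 0, *Gm11699* (5.09), *F830016B08Rik* (4.83) and *Gvin-ps2* (4.09), and below 0 *Gm5469* (-3.27), *Clcf1*, which encodes a cytokine of the interleukin-6 family (-2.91), *Asap3* (-2.82) and *Upp1*, the uridine phosphorylase (-2.57). *Gm5469* had 87 counts with PBS and 16 with LPS over the 3 knockout libraries, and 41 and 71 in the wild type. The others were at 0 or nearly so in at least 1 group. *F830016B08Rik* had 0, 0 and 0 scaled FPKM with PBS and 1.17, 0.870 and 1.19 with LPS in the knockout, and 0.265, 0.303 and 0.184 and 3.62, 6.4 and 6.62 in the wild type. *Upp1* had 0.0361, 0.101 and 0.0436 and 8.45, 8.94 and 9.34 in the knockout, and 0.0535, 0.0364 and 0 and 30.9, 23.8 and 25.7 in the wild type. Fitted folds of such genes depend on how low counts are handled, and each of the 7 lost its call without at least 1 library.

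*Dusp6*, *Myc* and *Bhlhe41* fell less in the knockout than in the wild type, with differences of 1.25, 0.88 and 1.39. *Dusp6* ended at 4.02, 3.66 and 3.88 scaled FPKM in the knockout and 1.52, 1.76 and 1.62 in the wild type. *Nos2*, *Tnf*, *Il6*, *Ccl2* and *Aifm1* had no called difference (edgeR adjusted p = 0.295, 0.663, 0.848, 0.0304 and 0.423). The estimates of the difference were -0.90 (SE 0.54), 0.06 (SE 0.08), 0.42 (SE 1.04), 0.18 (SE 0.06) and 0.13 (SE 0.10). For *Ccl2* the fold of the difference was under 1.5. Wild-type libraries had *Ccl2* at 85.7, 94.4 and 86.5 scaled FPKM with PBS and 1067, 974 and 955 with LPS. These lay below all knockout libraries of the same treatment. With LPS the wild type was also below without overlap for *Tnf* (1186, 1174 and 1172) and *Il6* (123, 110 and 107). *Nos2* and *Aifm1* overlapped between genotypes with LPS. Such differences in level were not tested. A test that misses the threshold does not show that the responses were alike, and both *Nos2* and *Il6* start near 0 in both genotypes, where the fitted fold is imprecise.

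**Figure D5:**
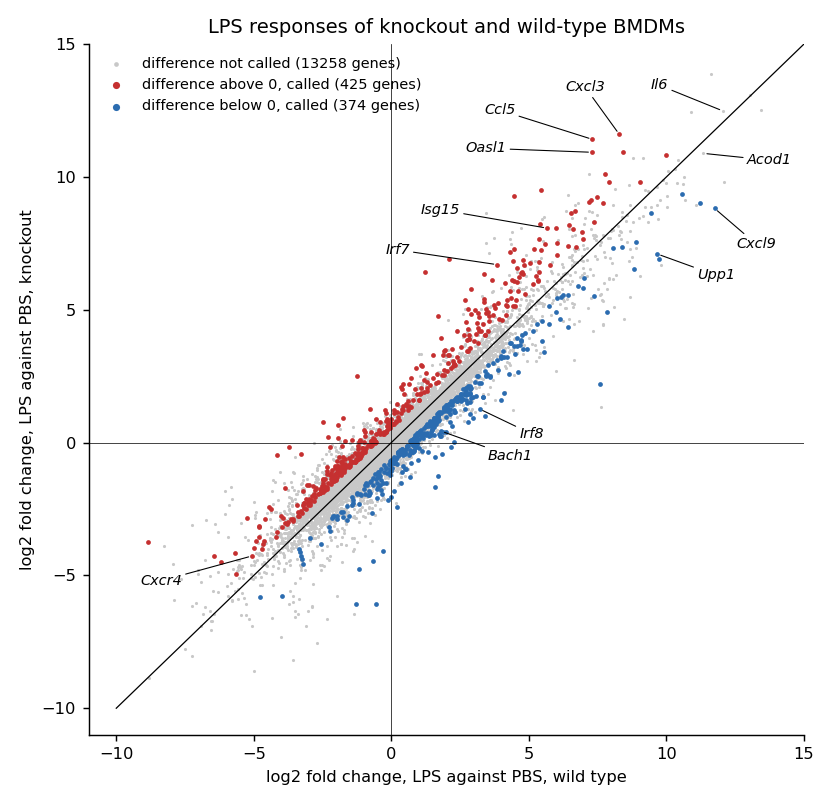
Each point is 1 of the 14057 genes tested, at its log2 fold change of LPS against PBS in the wild type (x axis) and in the knockout (y axis); the diagonal marks equal responses and colour the genes with a called difference, 425 above 0 (red) and 374 below 0 (blue). *Ccl5*, *Oasl1* and *Irf7* lie above the diagonal, and *Irf8*, *Bach1* and *Cxcl9* below it.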

How the data were processed

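RNA-seq of poly(A) RNA from 12 BMDM libraries was read from 1 deposited table that held raw counts per gene, FPKM values and the exonic length of each gene. The authors' counts and FPKM values, made from paired reads of 150 bases, were used as deposited. The submitters' processing notes name mm10, but the coordinates in the table do not match GRCm38 and are not printed; for the aligner and the counter, names were not given in the sources used here. Whether strand was used in counting is not stated either, so reads of overlapping genes, antisense partners and near-identical family members (GBP, IRG, *Ifit3* and *Ifit3b*, *Cxcl1* to *Cxcl3*) may have been shared out between them.

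Groups came from titles. Of 56691 genes, 2639 without a symbol among them, 14057 passed filterByExpr. In R 4.3.3, edgeR 4.0.16 (glmQLFit, glmQLFTest) was run on the counts of all 12 libraries with a mean per group, library sizes being scaled by the median ratio, and the Benjamini-Hochberg adjustment covered all genes tested. The SE is the size of the log2 fold change divided by the square root of its F statistic. Calls needed an adjusted p under 0.05 and a fold of at least 1.5. Scaled FPKM values were computed from the counts, the exonic lengths and the scaled library sizes. The deposited FPKM were within 1% of values computed from the deposited counts and lengths for 99.5% of 123096 values. Genes with few counts in 1 group are given as ratios of summed, scaled counts with exact 95% intervals, or against a floor of 3 counts over the group, and both cover counting error only.

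Genes named were those the study worked on, the 10 largest rises and falls by fold among called genes with at least 100 counts, 1 scaled FPKM in either group and no overlap, the 5 largest rises and falls in level, and the 5 largest differences between genotypes in each direction, beside members of the 27 lists. The ranking by level covered called genes with a symbol only. Some list members are counted but not reported here by name. Members and lists were chosen with earlier results of these data known. Names of factors, roles and pathways are background. Alternatives used TMM, DESeq2 1.42.0, limma 3.58.1 on log2(FPKM + 0.1) and log2(scaled FPKM + 1), other filters, a replicate block, 2 groups alone and each library left out. The edgeR steps were tested on simulated data in which few genes changed, in both directions alike. That simulation cannot test the scaling for a response as wide as this one. Promoter sequences are from RefSeq, GRCm38.p6. Libraries of macrophage cell lines were not used here.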

Additional observations from a re-analysis of the deposited data

Results flagged for a closer look

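The responses of the 2 genotypes to LPS differed, by the test of the difference itself (knockout minus wild type, edgeR), for 799 genes. Among the genes singled out by the rules, 9 differed above 0 on the log2 scale: *Il1b* (0.85), *Cxcl3* (3.32), *Ccl5* (4.10), *Hdc* (2.49), *Oasl1* (3.63), *Rsad2* (1.79), *Gm11699* (5.09), *F830016B08Rik* (4.83) and *Gvin-ps2* (4.09). The other 5 differed below 0: *Gm5469* (-3.27), *Cxcl9* (-2.94), *Clcf1* (-2.91), *Asap3* (-2.82) and *Upp1* (-2.57). *Il1b*, *Ccl5*, *Oasl1* and *Rsad2* kept the call in every alternative run, and the rest lost it in at least 1. *Ccl5*, *Oasl1* and *Rsad2* start lower in the knockout with PBS, whereas *Il1b* has like levels with PBS and ends higher in the knockout. With 3 libraries per group, no single library was tested as standing apart.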

How the results depend on the processing

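The count of genes called between LPS and PBS in the knockout, 7511, stayed within 1.5 times of that value in all 24 alternatives, from 5051 with limma on log2(scaled FPKM + 1) to 11107 with the adjusted p alone, and from 7452 to 7680 without any 1 library. Its share of rises moved from 46.4% to 19.9% with library totals alone, 20.6% with limma on the deposited FPKM, 54.8% with limma on log2(scaled FPKM + 1) and 42.7% with a median ratio taken over genes at 1 FPKM or more, a setting chosen after seeing the data. The count of called differences between genotypes, 799, was 421 with limma on log2(scaled FPKM + 1) and 2645 with the adjusted p alone, and ran from 725 to 805 without any 1 library. Its share above 0, 53.2%, was 73.0% with library totals alone, 65.0% with limma on the deposited FPKM and 39.7% with limma on log2(scaled FPKM + 1).

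With a replicate block, 7451 genes were called in the knockout and 736 differences between genotypes. Replicate numbers gave no sign of pairing: deviations from the group means of knockout libraries with the same number correlated at 0.025, 0.001 and -0.053. Those with different numbers ran from -0.061 to 0.058. Such values cannot exclude a pairing of samples that vary little, and the labels do not state one.

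The fall of *Gm5469* in the knockout (-1.69, edgeR adjusted p = 0.0478) lost its call in 9 alternatives, for example without knockout PBS replicate 2 (-1.14, edgeR adjusted p = 0.25). The other genes named for the study's work or for their rank kept their calls between LPS and PBS. Of the 267 list members called higher, 213 kept the call in all 24 alternatives, 36 lost it only with library totals or the deposited FPKM and 18 lost it in at least 1 other, and of the 73 called lower 67 kept it. The differences of *F830016B08Rik* and *Gvin-ps2* turned around with limma on log2(scaled FPKM + 1), to -1.30 and -0.16, and that of *F830016B08Rik* to -0.43 with limma on log2(scaled FPKM + 0.1). *Hdc* (0.36) and *Clcf1* (-0.36) lost their called difference with log2(scaled FPKM + 1). *Gm11699* lost it without knockout LPS replicate 1 (4.45, edgeR adjusted p = 0.0634), *Upp1* without any 1 of 6 libraries (-2.73 to -1.95), and *Asap3*, *Clcf1*, *Gvin-ps2*, *F830016B08Rik* and *Gm5469* without any 1 of 3 or more libraries; the cause was not tested. Of the 67 list members with a difference called above 0, 44 kept the call in all 23 alternatives, and of the 23 below 0, 8 did. Of the 27 lists, 8 had a median that changed sign in at least 1 alternative and 19 had none. Folds of genes with few counts in 1 group are limited by those counts at the depth of these libraries.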
